A study of Rattus norvegicus with 8 samples.

Results

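The endoplasmic reticulum chaperones and secretory export genes of the rat periodontal ligament were examined as a set of 35 named genes, of which 34 were measured among the 17337 genes of the count table. The members were listed by name, but with earlier results of these data known. All 34 passed the filter on low counts. Mia3, a cargo receptor for large collagens, was not analysed here. They were grouped by role into 14 chaperones and folding enzymes, 3 collagen folding and modification genes, 4 regulators of the unfolded protein response, 5 translocation channel genes, 6 measured export coat genes and 2 retrieval receptors. The periodontal ligament is a sheet of fibrous tissue between the root of the tooth and its bony socket. Its cervical part was taken by laser micro-dissection from 4 untreated rats (Rattus norvegicus) at postnatal day 18 (P18) and from 4 at postnatal day 28 (P28), ages between which the teeth come into occlusal contact. Neither age carried an allele, transgene or agent according to the labels, and no strain is named in them. The kit for these small amounts of total RNA was SMARTer Ultra Low.

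Secreted proteins enter the endoplasmic reticulum through a membrane channel, are folded by chaperones and disulfide isomerases in its lumen, and leave in vesicles shaped by the COPII coat. When unfolded proteins build up, the unfolded protein response, with Xbp1 and Atf4 among its transcription factors, raises the level of chaperones. Ligament fibroblasts secrete large amounts of collagen, a cargo that needs dedicated folding enzymes and unusually large export vesicles.

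Total counts per library ran from 5252693 (P28 replicate 4) to 26645656 (P18 replicate 2), and 10063 to 11661 genes had at least 1 count. Levels are given as CPM, counts scaled to a common library size with TMM factors; 3 counts were worth 0.108 (P18 replicate 2) to 0.624 CPM (P28 replicate 4). The 9 listed markers of ligament fibroblasts, carried mostly by Col1a1, Col3a1 and Postn, summed to 86345 to 129389 CPM at P18 and 131514 to 182873 CPM at P28, with no overlap. They did not move together: Tnmd, a tendon and ligament marker, fell (479 to 734 CPM at P18 and 51.1 to 133 CPM at P28, edgeR adjusted p = 0.00608), and Fmod, a collagen-binding proteoglycan, rose (13.3 to 103 CPM and 281 to 407 CPM, adjusted p = 0.0264). Col1a2 (10.8 to 44.2 CPM) and Scx (3.33 to 172 CPM) were low. Aspn had at most 2 counts in any library of either age and was not tested. Why Col1a2 lay so far below Col1a1 (37290 to 82845 CPM) was not tested. P28 replicate 4 stood apart from the other P28 libraries. Over genes, which are no independent replicates, its correlations with them in log2 CPM were 0.750 to 0.766, against 0.813 to 0.827 among those 3. Several results that rest on it are given with and without it.

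Most members lay lower at P28, but none passed the test over all genes. Of the 34 members, 26 had a log2 fold change (P28 over P18) below 0 and 8 above 0, with a median of -0.23, whereas the median over all 10472 genes tested was 0.01. The members with an unadjusted p under 0.05 were the disulfide isomerases Pdia6 and Pdia4, the chaperones Hspa5 and Hsp90b1, the translocon subunit Ssr1 and the coat subunit Sec13, all lower, and the transcription factor Atf4, higher. Sec23a, a coat subunit, had the lowest fold change of the members, with a wide interval. No member had an adjusted p under 0.05 in edgeR's quasi-likelihood test with Benjamini-Hochberg adjustment; 0.936% of all genes tested did. The unadjusted threshold was passed by 6 of 34 members that were lower, beside 7.1% of all genes, and by 1 that was higher, beside 7.45%. For 4 members that were lower and 1 that was higher, P18 and P28 libraries did not overlap, beside 5.54% and 4.91% of all genes. The members were measured more precisely than most genes, with a median standard error (SE) of the log2 fold change of 0.22, against 0.49 over all genes. In bulk tissue, fewer cells of a type and less RNA per cell cannot be told apart.

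**Figure D1:**
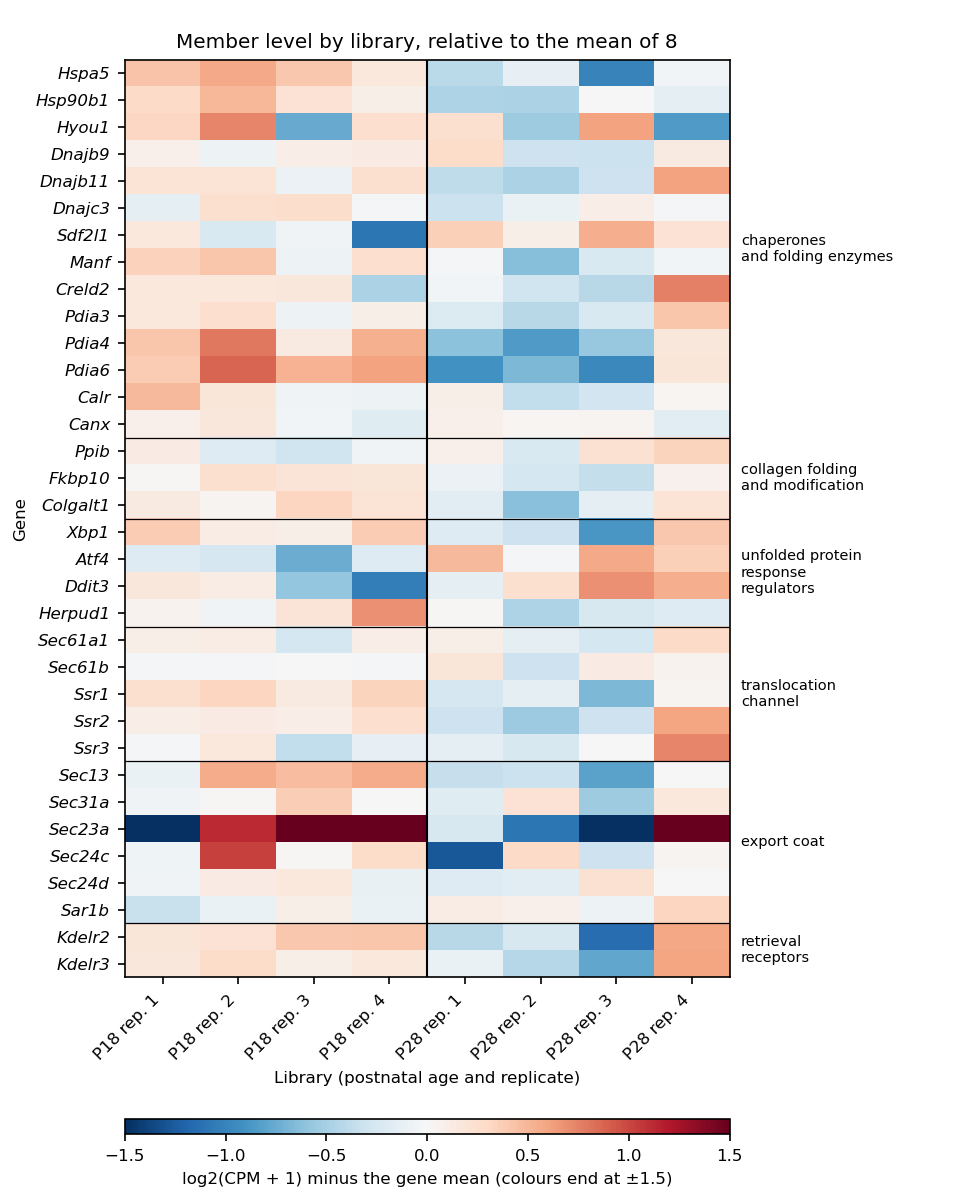
Level of the 34 measured members (rows, by role) in the 8 libraries (columns), as log2(CPM + 1) minus the mean of the gene over the libraries; blue is below and red above that mean. Pdia4 and Pdia6 are blue in P28 replicates 1 to 3, Atf4 is blue in all P18 libraries, and P28 replicate 4 is the highest P28 library for 19 of the 34 members.

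The main Hsp70 and Hsp90 chaperones of the lumen, BiP and Grp94, lay lower in every P28 library. Hspa5, which encodes BiP, lay at 781, 860, 768 and 649 CPM in the P18 libraries (replicates 1 to 4) and at 437, 535, 290 and 566 CPM in those of P28 (same order, as throughout). The ages did not overlap, and P28 replicate 3 was the lowest of all 8. The log2 fold change was -0.74 ± 0.22 (SE; edgeR unadjusted p = 0.00532, adjusted p = 0.136). Hsp90b1, which encodes Grp94, lay at 513, 593, 490 and 446 CPM at P18 and at 304, 304, 424 and 379 CPM at P28. The gap between the ages was narrow, from 424 to 446 CPM, and the log2 fold change was -0.53 ± 0.18 (edgeR unadjusted p = 0.0135, adjusted p = 0.196). Without any 1 library in turn, the log2 fold change of Hspa5 was -0.86 to -0.58 and that of Hsp90b1 -0.63 to -0.46.

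Protein disulfide isomerases differed among themselves. Pdia6 lay at 537, 752, 589 and 624 CPM at P18 and at 218, 256, 209 and 464 CPM at P28. Every P28 library was below every P18 library, with P28 replicate 4 nearest to them. Its log2 fold change, -1.13 ± 0.26 (95% interval -1.69 to -0.56), had the lowest p of all members (edgeR unadjusted p = 0.000956, adjusted p = 0.0714). Pdia4 lay at 325, 424, 269 and 353 CPM at P18 and at 159, 135, 164 and 274 CPM at P28; its log2 fold change was -0.91 ± 0.25 (edgeR unadjusted p = 0.00305, adjusted p = 0.105). Only P28 replicate 4 overlapped the P18 range, and it lay just above P18 replicate 3. Pdia3, the isomerase that works with the lectin chaperones on glycoproteins, lay at 581, 619, 492 and 554 CPM at P18 and at 452, 390, 444 and 691 CPM at P28. Its ages overlapped through P28 replicate 4, and its log2 fold change was -0.18 (95% interval -0.63 to 0.26).

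Pdia6 and Pdia4 were also lower at P28 relative to Pdia3 within each library, a measure that no scaling between libraries touches. The ratio of Pdia6 counts to Pdia3 counts was 0.924, 1.21, 1.20 and 1.13 at P18 and 0.484, 0.657, 0.470 and 0.671 at P28. The ratio of Pdia4 to Pdia3 was 0.560, 0.685, 0.546 and 0.636 at P18 and 0.352, 0.346, 0.370 and 0.396 at P28. The ages did not overlap in either ratio, and P28 replicate 4, which lay near the P18 levels for both genes, lay with the other P28 libraries here. These ratios were chosen after the levels had been seen and were given no test; they also depend on the lengths of the genes, so only their change between libraries is read.

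The lectin chaperones calreticulin and calnexin bind sugar chains of newly made glycoproteins. Calr, the luminal one, lay at 662 ± 126 CPM (SD, n = 4) at P18 and 548 ± 85.7 CPM at P28, and Canx, the membrane-bound one, at 366 ± 37.96 and 363 ± 26.1 CPM. Canx had the log2 fold change nearest to 0 of the 34 members, -0.01, with a 95% interval of -0.37 to 0.35. The Hsp40 co-chaperones of BiP also overlapped between the ages. Dnajb9, Dnajb11 and Dnajc3 had log2 fold changes of -0.09 ± 0.23, -0.22 ± 0.26 and -0.17 ± 0.20. Hyou1, a large Hsp70 relative that exchanges the nucleotide of BiP, had a wide spread in both ages, 35.8 to 102 CPM at P18 and 33.3 to 93.3 CPM at P28. Manf, a secreted stress protein that binds BiP, had a log2 fold change of -0.47 ± 0.23. Creld2, a stress-induced secreted protein, had one of 0.05 ± 0.28. Sdf2l1, which works with BiP and its Hsp40 partners, had the highest value of the 14 at 0.56 ± 0.34 (edgeR adjusted p = 0.494), from 35.7 ± 11.8 to 52.4 ± 7.35 CPM. Read as a group, 12 of the 14 chaperones and folding enzymes had a value below 0, with a median of -0.23.

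**Figure D2:**
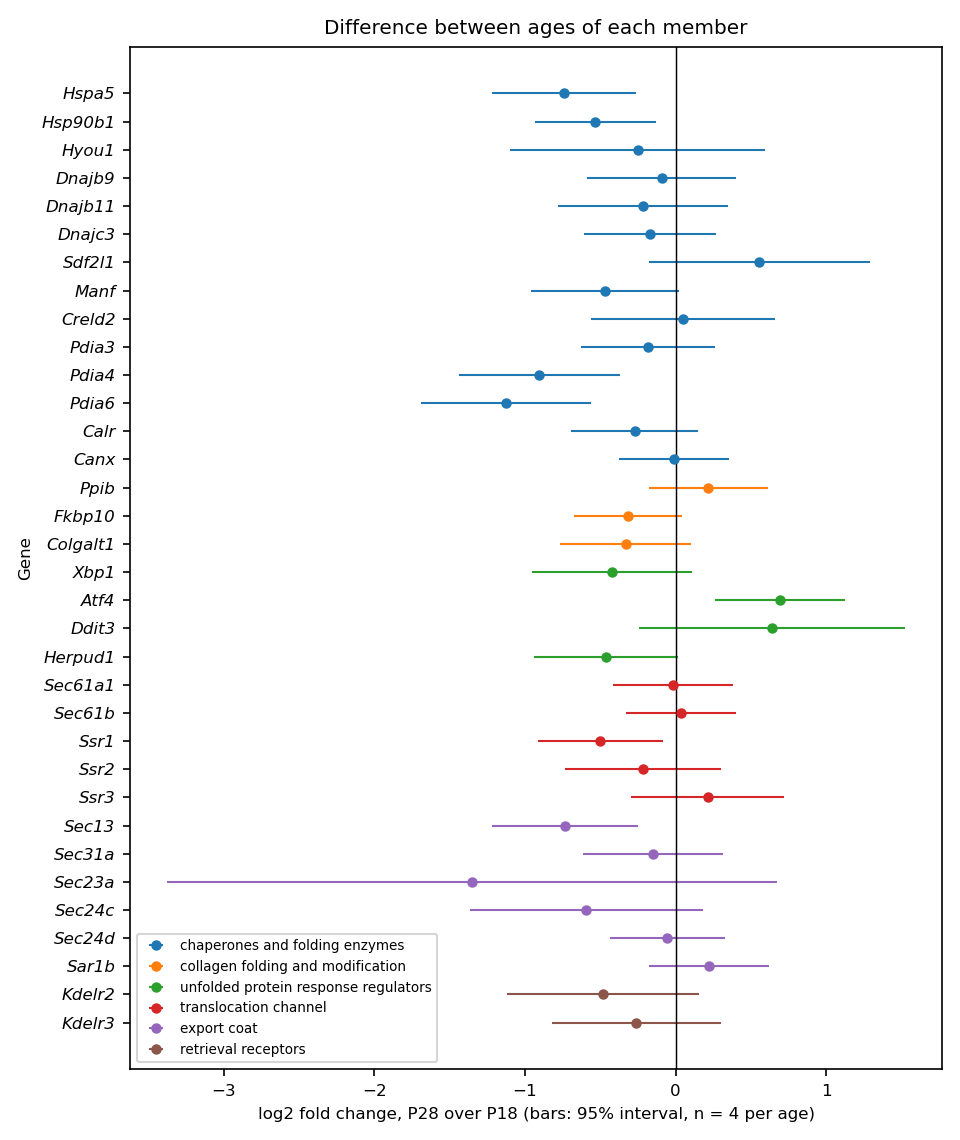
Log2 fold change of each measured member, P28 over P18, with its 95% interval (n = 4 libraries per age), coloured by role. The intervals of Hspa5, Hsp90b1, Pdia4, Pdia6, Ssr1 and Sec13 lie below 0 and that of Atf4 above 0, all before adjustment over the 10472 genes tested, and that of Sec23a is the widest.

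Some of these genes share a promoter motif. The list holds known targets of it, Hspa5 and Hsp90b1 among them, so its share among members is a description and no independent result. The endoplasmic reticulum stress element, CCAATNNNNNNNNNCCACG, is bound by Atf6 with the CCAAT factor NF-Y. It was sought on both strands in windows of 300 bases, from 250 before to 50 after the start of each gene, taken from RefSeq (build GRCr8). A window was found for 27 of the 35 members; Pdia3, Pdia6, Manf, Fkbp10, Sec61a1, Sec24c, Sec24d and Kdelr2 had none. The element was present in 7 of these 27 members (25.9%) and in 22 of all 33469 windows (0.0657%). A second form, ATTGGNCCACG, was present in 3 members, Dnajb11, Herpud1 and Hyou1 (11.1%), and in 0.0508% of all windows. The Xbp1 element TGACGTGG was present in Hyou1, Kdelr3 and Sec23a (0.595% of all windows); in Hyou1 it overlaps a match of the second form. The amino acid response element TTGCATCA, which Atf4 dimers bind, was present in Herpud1 (0.795% of all windows). The matches of the stress element are shown in the motif's orientation, with the fixed letters in capitals, to show how far the bases between them vary:
Hspa5: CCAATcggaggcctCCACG
Hsp90b1, farther from the start: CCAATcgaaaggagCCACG
Hsp90b1, nearer to the start: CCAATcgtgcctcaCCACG
Calr: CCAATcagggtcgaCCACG
Canx: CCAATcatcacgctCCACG
Creld2: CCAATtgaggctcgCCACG
Dnajc3: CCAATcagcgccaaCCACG
Xbp1: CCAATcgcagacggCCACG

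The whole windows of Hspa5 and Hsp90b1, the most studied targets of this element, are given to show where it lies. That of Hspa5 is chr3:38452766-38453065 on the plus strand, with 1 match from -43 to -25 (start of the gene at 0). That of Hsp90b1 is chr7:23012244-23012543 on the minus strand, with matches from -176 to -158 and, on the opposite strand, from -72 to -54. Both are printed 5′ to 3′ in the direction of the gene, with the fixed letters of the element in capitals:
Hspa5: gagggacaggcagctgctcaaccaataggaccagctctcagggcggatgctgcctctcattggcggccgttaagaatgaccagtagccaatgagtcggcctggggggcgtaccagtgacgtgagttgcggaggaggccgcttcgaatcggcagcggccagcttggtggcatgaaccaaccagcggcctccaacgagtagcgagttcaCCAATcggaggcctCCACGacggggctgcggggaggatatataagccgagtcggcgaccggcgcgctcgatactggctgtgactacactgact
Hsp90b1: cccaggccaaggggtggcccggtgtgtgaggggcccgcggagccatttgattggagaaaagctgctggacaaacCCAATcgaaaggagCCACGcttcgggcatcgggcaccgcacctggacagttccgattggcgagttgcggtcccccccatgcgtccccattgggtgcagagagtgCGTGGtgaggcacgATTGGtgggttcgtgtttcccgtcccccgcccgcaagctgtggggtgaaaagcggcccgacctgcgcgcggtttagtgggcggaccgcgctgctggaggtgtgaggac

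The window of Herpud1, chr19:10614658-10614957 on the minus strand, is shown because it carries both the amino acid response element, from -184 to -177, and the second form of the stress element, from -124 to -114 (fixed letters of both in capitals):
Herpud1: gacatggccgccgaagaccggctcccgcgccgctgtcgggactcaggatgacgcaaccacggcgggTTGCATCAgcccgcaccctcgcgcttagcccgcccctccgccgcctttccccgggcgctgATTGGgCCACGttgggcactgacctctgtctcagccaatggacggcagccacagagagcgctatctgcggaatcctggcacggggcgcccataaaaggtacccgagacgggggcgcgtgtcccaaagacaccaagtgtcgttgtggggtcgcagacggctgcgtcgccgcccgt

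Genes with the element did not all lie at one value. The 10 measured members with either form of the stress element had log2 fold changes from -0.74 (Hspa5) to 0.05 (Creld2), with a median of -0.26 and 9 below 0. The 16 measured members whose window held neither form ran from -1.35 to 0.69, with a median of -0.12 and 9 below 0. Pdia4 was among the latter, and the window of Pdia6 was not analysed. A match is a description of the letters in the window and not a measure of binding.

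The 3 members for collagen folding overlapped between the ages. Ppib, the prolyl isomerase cyclophilin B, lay at 1424, 1148, 1068 and 1265 CPM at P18 and at 1385, 1120, 1537 and 1658 CPM at P28. Fkbp10, another prolyl isomerase of procollagen, lay at 1131 ± 73.4 and 908 ± 121 CPM, and Colgalt1, which adds galactose to hydroxylysine, at 320 ± 26.2 and 254 ± 58.5 CPM. In log2, P28 differed by 0.22 ± 0.18, -0.32 ± 0.17 and -0.33 ± 0.20 (edgeR adjusted p = 0.640, 0.416 and 0.494). Serpinh1, the collagen-specific chaperone Hsp47 and no member of the set, lay at 3562, 3631, 3374 and 3776 CPM at P18 and at 3308, 2756, 1927 and 3224 CPM at P28. Its ages did not overlap, with a log2 fold change of -0.35 ± 0.19 (edgeR unadjusted p = 0.0882, adjusted p = 0.432).

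Regulators of the unfolded protein response went different ways. Atf4, the transcription factor made when the kinase PERK slows translation, lay at 449, 432, 308 and 451 CPM at P18 and at 722, 505, 761 and 659 CPM at P28. All 4 P28 libraries lay above all P18 libraries, and the log2 fold change was 0.69 ± 0.20 (edgeR unadjusted p = 0.00441, adjusted p = 0.122). Ddit3, its target that encodes CHOP, lay at 34.1, 32.6, 19.8 and 14.2 CPM at P18 and at 27.5, 35.8, 49.0 and 44.5 CPM at P28. The ages overlapped, and its 95% interval ran from -0.25 to 1.52. Atf4 is controlled mostly at translation, which RNA counts do not measure.

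Xbp1, whose mRNA is spliced by the kinase Ire1, lay at 762, 631, 618 and 762 CPM at P18 and at 508, 470, 318 and 774 CPM at P28. P28 replicates 1 to 3 lay below every P18 library and P28 replicate 4 above them all. The spliced form cannot be told from gene counts. Its log2 fold change was -0.42 ± 0.25 (edgeR adjusted p = 0.470), and -0.68 ± 0.20 without P28 replicate 4 (adjusted p = 0.108). Within each library the ratio of Atf4 to Xbp1 counts was 0.590, 0.684, 0.498 and 0.591 at P18 and 1.42, 1.07, 2.39 and 0.852 at P28, with no overlap between the ages. Atf4 alone already did not overlap, so this ratio is no separate result, and it was given no test. Herpud1, a membrane protein of the degradation complex, lay at 140, 130, 154 and 218 CPM at P18 and at 136, 97.7, 114 and 117 CPM at P28 (log2 fold change -0.46 ± 0.22).

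Immediate early genes, which respond to handling of tissue, were summed beside Atf4 and Ddit3. The 8 genes of that list, Atf3 among them, summed to 387 to 593 CPM at P18 and 414 to 1160 CPM at P28. P28 replicates 2 and 3 were the highest (1160 and 847 CPM) and P28 replicates 1 and 4 lay within the P18 range. Of the 8 genes, 7 had a log2 fold change above 0, with a median of 0.57, and 0 were called. At an unadjusted edgeR p under 0.05, 2 were higher (7.45% of all genes). Junb alone did not overlap between the ages (4.91% of all genes were higher without overlap). The part of these genes in the levels of Atf4 and Ddit3 was not tested.

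**Figure D3:**
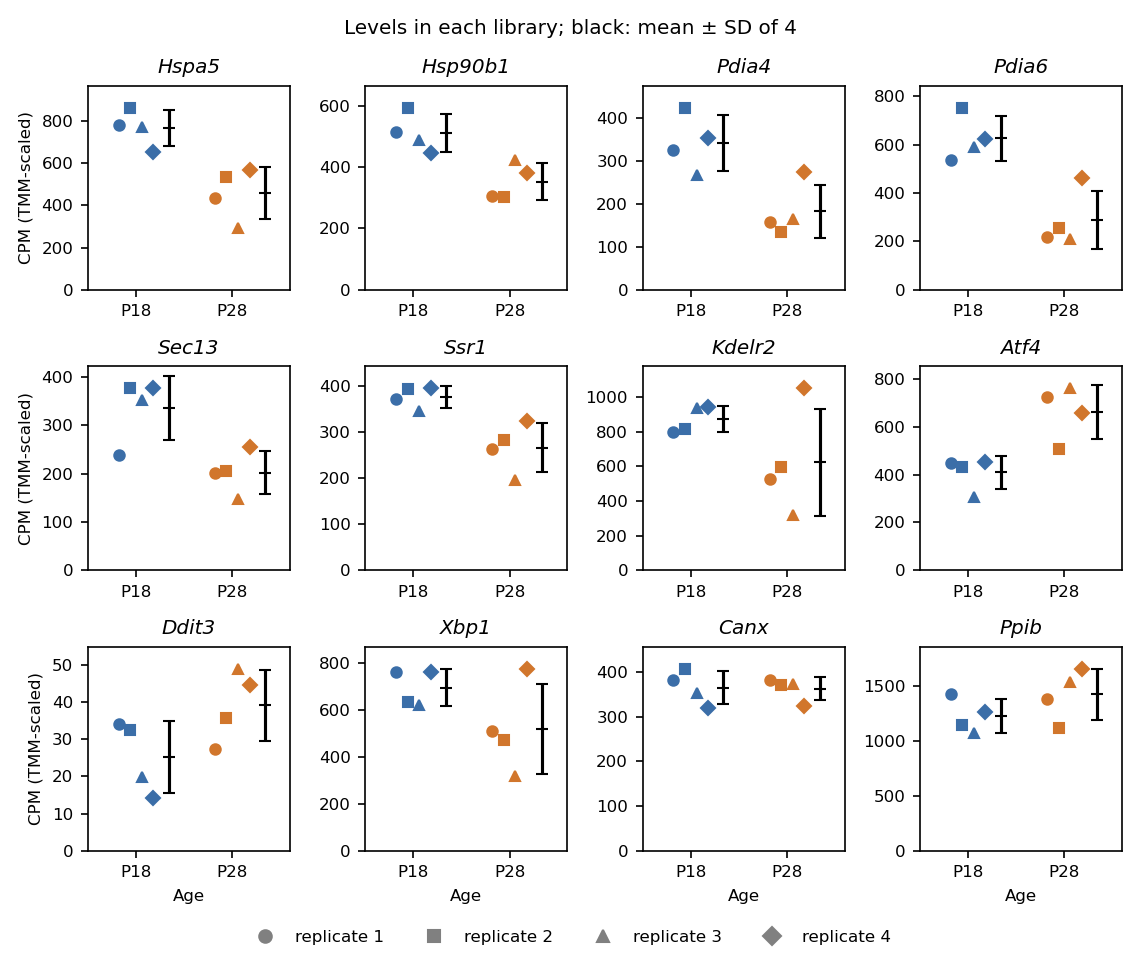
TMM-scaled CPM of 12 members in each library, with the mean ± SD of the 4 libraries of an age in black; symbols mark replicates 1 to 4. Hspa5, Hsp90b1, Pdia6 and Ssr1 do not overlap between the ages, Canx lies at 366 and 363 CPM on average, and the diamond of P28 replicate 4 lies above the other P28 libraries for Pdia4, Pdia6, Kdelr2 and Xbp1.

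Of the 5 members for translocation, Ssr1 was the one without overlap between the ages. Sec61a1, the channel itself, lay at 733 ± 87.3 and 725 ± 125 CPM, and its small subunit Sec61b at 605 ± 7.26 and 621 ± 90.1 CPM. Their 95% intervals of the log2 fold change were -0.42 to 0.38 and -0.33 to 0.40. Ssr1, Ssr2 and Ssr3 encode the alpha, beta and gamma subunits of the translocon-associated protein complex. Ssr1 lay at 373, 393, 346 and 396 CPM at P18 and at 264, 283, 196 and 324 CPM at P28, with no overlap (log2 fold change -0.50 ± 0.19, edgeR unadjusted p = 0.0221, adjusted p = 0.243). Ssr2 and Ssr3 overlapped between the ages, at log2 fold changes of -0.22 ± 0.24 and 0.21 ± 0.24, and both were highest in P28 replicate 4 (1282 and 652 CPM).

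The count ratios of these subunits moved within libraries. The ratio of Ssr1 to Ssr3 was 0.960, 0.894, 1.14 and 1.09 at P18 and 0.743, 0.853, 0.499 and 0.497 at P28. That of Ssr3 to Ssr2 was 0.427, 0.475, 0.335 and 0.358 at P18 and 0.519, 0.571, 0.573 and 0.508 at P28. Neither overlapped between the ages, whereas the ratio of Ssr1 to Ssr2 did, as did that of Sec61a1 to Sec61b. Like the isomerase ratios, these were given no test. In all 14 ratios were computed, and none of them was tested. Of these, 6 did not overlap between the ages and 8 did. The others with overlap were Hspa5/Hsp90b1, Calr/Canx, Kdelr2/Kdelr3, Sec24c/Sec24d, Atf4/Ddit3 and Fkbp10/Ppib.

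The export coat, read apart from the chaperones, had 5 of 6 measured genes below 0 and a median log2 fold change of -0.37. Sar1 is the GTPase that starts the coat, Sec23 and Sec24 form its inner layer and select cargo, and Sec13 and Sec31 form its outer cage. Sec13 lay at 239, 376, 351 and 376 CPM at P18 and at 201, 205, 146 and 255 CPM at P28. Only P18 replicate 1 and P28 replicate 4 overlapped, and the log2 fold change was -0.74 ± 0.22 (edgeR unadjusted p = 0.00618, adjusted p = 0.142). Its cage partner Sec31a lay at 194 ± 27.8 and 175 ± 40.04 CPM (-0.15 ± 0.21). The ratio of Sec13 to Sec31a counts was 1.36, 2.04, 1.49 and 2.08 at P18 and 1.26, 0.967, 1.17 and 1.26 at P28, without overlap. Sec13 also has a place in the nuclear pore, so its level need not follow the coat alone.

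Inner coat genes differed in how far the libraries of an age agreed. Sec24d, a cargo subunit needed for procollagen export in the skeleton, lay at 321, 362, 373 and 309 CPM at P18 and at 291, 297, 392 and 334 CPM at P28. The ages overlapped throughout, with a 95% interval of -0.44 to 0.33. Sec24c, another cargo subunit, lay at 105 ± 40.4 and 69.6 ± 28.2 CPM (-0.59 ± 0.36). Sec23a, whose loss impairs collagen export, lay at 4.88, 63.9, 101 and 142 CPM at P18 and at 24.2, 13.1, 2.77 and 83.4 CPM at P28. It had the largest fold change and the widest interval of the members (-1.35, 95% interval -3.38 to 0.67; -2.54 without P28 replicate 4), with nearly the whole range present within each age. Sar1b, the GTPase used for large cargo, lay at 169 ± 20.2 and 198 ± 23.1 CPM (0.22 ± 0.18). The coat median was -0.23 without P28 replicate 1 and -0.25 without P18 replicate 2, and the chaperone median was -0.13 without P28 replicate 2 and -0.36 without P28 replicate 4. A difference between the medians of these groups was not tested.

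**Figure D4:**
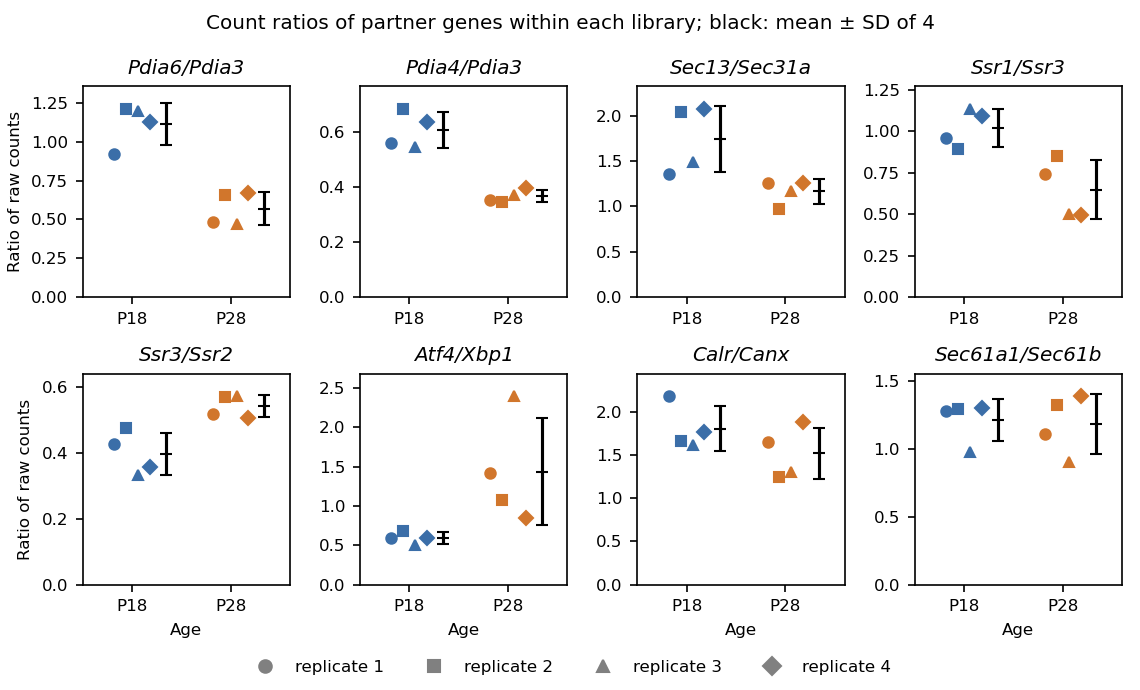
Ratio of raw counts of partner genes within each library, with the mean ± SD of the 4 libraries of an age in black; symbols mark replicates 1 to 4. The ages do not overlap for Pdia6/Pdia3, Pdia4/Pdia3, Sec13/Sec31a, Ssr1/Ssr3, Ssr3/Ssr2 and Atf4/Xbp1, and they overlap for Calr/Canx and Sec61a1/Sec61b.

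Receptors that return escaped chaperones from the Golgi, which bind their KDEL tails, varied mostly among the P28 libraries. Kdelr2 lay at 799, 816, 937 and 940 CPM at P18 and at 529, 599, 318 and 1051 CPM at P28, and Kdelr3 at 807, 871, 764 and 802 CPM at P18 and at 671, 534, 418 and 1084 CPM at P28. For both, P28 replicates 1 to 3 lay below every P18 library and P28 replicate 4 above. Their log2 fold changes were -0.48 ± 0.29 and -0.26 ± 0.26, and -0.86 ± 0.22 and -0.58 ± 0.19 without that library (edgeR adjusted p = 0.0749 and 0.137).

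P28 replicate 4 was the highest P28 library for 19 of the 34 members (55.9%) and for 27.8% of all genes tested. The SD of log2 CPM was larger at P28 for 25 of 34 members, and most genes did the same (63.5%). Its median was 0.18 at P18 and 0.34 at P28 over members, and 0.53 and 0.69 over all genes. When P28 replicate 4 was left out, 14 members lay below every P18 library in all 3 P28 libraries, beside 9.15% of all genes. They were Hspa5, Hsp90b1, Dnajb11, Pdia3, Pdia4, Pdia6, Fkbp10, Colgalt1, Xbp1, Ssr1, Ssr2, Sec13, Kdelr2 and Kdelr3. In the fit without P28 replicate 4, 27 members had a log2 fold change below 0 and 7 above. Pdia3 was at -0.39 ± 0.16, Dnajb11 at -0.54 ± 0.19, Ssr2 at -0.53 ± 0.15 and Ssr3 at -0.05 ± 0.18. In that fit 16 members were lower at an unadjusted p under 0.05 (9.12% of all genes) and 2 passed the adjusted threshold, beside 0.97% of all genes lower. These were Pdia6 (log2 fold change -1.46 ± 0.19, edgeR adjusted p = 0.00911) and Pdia4 (-1.16 ± 0.20, adjusted p = 0.0251). Leaving out any other library gave no called member.

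Other tools called more. The Wald test of DESeq2 called 5 members, beside 5.3% of all genes: Pdia6 (adjusted p = 0.00245), Pdia4 (0.0213), Hspa5 (0.0296) and Sec13 (0.0489) lower and Atf4 (0.0194) higher. Limma with voom and sample quality weights called Pdia6, Pdia4 and Sec13, all lower (adjusted p = 0.00788, 0.0216 and 0.0466), beside 2.93% of all genes. Pdia6 and Pdia4 were called in 3 of the 15 alternatives, 1 of them the fit without P28 replicate 4, and not in the main fit. They had the lowest p of the members in the main fit, so a fit that calls any member would tend to include them.

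Cell types with a large secretory apparatus were checked through their markers. Osteoblast and cementoblast genes (7 of 7 listed measured) summed to 3804 to 5865 CPM at P18 and 5096 to 10277 CPM at P28, highest in P28 replicate 4. Plasma and B cell genes (6 of 8 measured, Jchain and Cd79a not analysed) summed to 21.9 to 159 CPM at P18 and 2.58 to 21.7 CPM at P28, so they lay lower at P28 as most chaperones did. Mzb1, a gene of that list and a chaperone partner of plasma cells, had 0 counts in P28 replicates 2 and 4. Those were the P28 libraries with the lowest total counts (9083624 and 5252693). Derl3, the 1 tested gene of that list above 0, had a log2 fold change of 0.14 ± 1.43. It was highest in P28 replicate 4 (15.6 CPM). Osteoclast genes (5 of 7 measured) summed to 1451 to 1707 CPM at P18 and to 5506, 1024, 7813 and 2057 CPM in P28 replicates 1 to 4. Enamel organ genes (6 of 6 measured) summed to 15.1 to 4843 CPM at P18 and 5.62 to 638 CPM at P28, where Odam gave nearly all of the highest sum. Ambn, an enamel matrix gene of the list, fell (9.72 to 2329 CPM at P18 and 1.06 to 4.58 CPM at P28, edgeR adjusted p = 0.0204), and Amtn, another gene of the list, fell too (0.815 to 144 CPM and 0 to 0.163 CPM, adjusted p = 0.0188). Neither overlapped between the ages. Epithelial genes (6 of 6 measured) summed to 24.0 to 576 CPM at P18 and 60.8 to 5499 CPM at P28, and the summed markers of endothelium, macrophages, neutrophils and erythroid cells overlapped between the ages. Of these, erythroid genes were below 0 for 5 of 5 tested (4 at an unadjusted p under 0.05, median log2 fold change -2.14). Neutrophil genes were so for 6 of 6 (2 at that threshold, median -1.95), the same sign as most members. Below 0 were also 4 of 5 tested genes of plasma and B cells (4 at that threshold, median -3.58). The same held for 4 of 4 tested genes of the enamel organ (3 at it, median -7.43). Endothelial genes were below 0 for 4 of 6 (median -0.52), with 0 lower and 1 higher at that threshold. Other lists went the other way. Above 0 were 6 of 6 epithelial genes (2 at that threshold, median 2.57) and 4 of 4 osteoclast genes (3 at it, median 3.07). So were 4 of 7 genes of osteoblasts and cementoblasts (median 1.34), 5 of 6 of macrophages (0.68) and 7 of 8 of ligament fibroblasts (0.57). The part of these cells in the members' levels was not tested.

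Other genes of the pathway, 118 in 6 lists, were read in the same way. Of the 108 tested, 72 had a log2 fold change below 0 and 36 above, with a median of -0.26; 18 were lower and 4 higher at an unadjusted p under 0.05, beside 7.1% and 7.45% of all genes. The 1 gene called, of 108, is a share close to that over all genes (0.936%). It was Sec22b, a SNARE that fuses vesicles between the endoplasmic reticulum and the Golgi. It fell from 243, 340, 374 and 354 CPM at P18 to 159, 180, 88.4 and 147 CPM at P28, with no overlap and a log2 value of -1.19 ± 0.24 (edgeR adjusted p = 0.0434). Its call held without P18 replicate 1 or P28 replicate 2 and ended without any of the other 6 libraries (edgeR adjusted p up to 0.139) and with the subject number as a block (0.109).

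Export and retrieval genes had the lowest medians of these lists. Of 20 tested other export and cargo receptor genes, 18 were below 0, with a median of -0.42, 1 called lower and 5 lower at an unadjusted p under 0.05 (over all genes, 0.936% called and 7.1% lower). After Sec22b, the lowest p belonged to Tmed2, a cargo receptor of the p24 family (log2 fold change -0.88 ± 0.21, edgeR adjusted p = 0.0788), and Surf4, a cargo receptor (-1.58 ± 0.43, adjusted p = 0.107). Of 11 genes of the retrieval coat COPI and its partners, 9 were below 0, with a median of -0.42, 0 called and 5 lower at an unadjusted p under 0.05 (7.1% of all genes). Arcn1 and Copz1, the delta and zeta subunits, and Arf1, the GTPase that recruits the coat, had log2 fold changes of -0.89 ± 0.22, -0.61 ± 0.19 and -0.86 ± 0.27 (adjusted p = 0.0881, 0.153 and 0.153).

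Among 24 tested other translocation, signal peptidase and glycosylation genes, 16 were below 0 (median -0.21), 0 were called, and 4 were lower and 2 higher at an unadjusted p under 0.05 (7.1% and 7.45% of all genes). Sec61g, the third subunit of the channel, lay at 157, 149, 145 and 153 CPM at P18 and at 240, 220, 377 and 251 CPM at P28 (by edgeR, log2 fold change 0.85 ± 0.20 and adjusted p = 0.0773). The catalytic subunits of the enzyme that transfers sugar chains, Stt3a and Stt3b, lay the other way at -0.77 ± 0.20 and -1.60 ± 0.44 (adjusted p = 0.0958 and 0.112). Sec61g thus lay above its P18 range in all 4 P28 libraries while Sec61a1 and Sec61b overlapped.

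Of 23 tested other folding enzymes, 15 were below 0 (median -0.15), 0 were called, and 2 were higher and 1 lower at an unadjusted p under 0.05 (7.45% and 7.1% of all genes). Prkcsh, the beta subunit of glucosidase II, Fkbp2 and Fkbp14, prolyl isomerases, differed by 0.65 ± 0.20, 0.55 ± 0.21 and -0.64 ± 0.28 in log2 (edgeR adjusted p = 0.145, 0.258 and 0.326). Of 14 degradation genes, 9 were below 0 (median -0.21), 0 were called, and 2 were lower and 0 higher at an unadjusted p under 0.05 (7.1% and 7.45% of all genes). Vcp, the ATPase that extracts proteins for the proteasome, Nploc4, its cofactor, and Syvn1, the ubiquitin ligase, had log2 fold changes of -0.53 ± 0.18, -1.14 ± 0.48 and -0.60 ± 0.32 (adjusted p = 0.188, 0.300 and 0.428).

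Other sensors, transducers and targets of the unfolded protein response were the only one of these 6 lists with a median above 0. It was 0.23 over 16 tested genes, 11 of them above 0, with a median SE of 0.45. None was called, and 0 were higher and 1 lower at an unadjusted p under 0.05 (7.45% and 7.1% of all genes). Some had few counts, such as Ern1 with 0 to 77 at P18 and 0 to 89 at P28. Eif2s1, the initiation factor subunit that PERK phosphorylates, Asns, an amino acid synthesis gene that Atf4 induces, and Atf6b, a membrane-bound transcription factor, had the lowest p and lay below 0 (-0.68 ± 0.26, -0.98 ± 0.46 and -0.40 ± 0.21; edgeR adjusted p = 0.256, 0.354 and 0.403). Asns lay at 17.4, 46.0, 49.2 and 48.5 CPM at P18 and at 13.9, 32.1, 21.1 and 14.6 CPM at P28, with a fold change of opposite sign to that of Atf4.

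**Figure D5:**
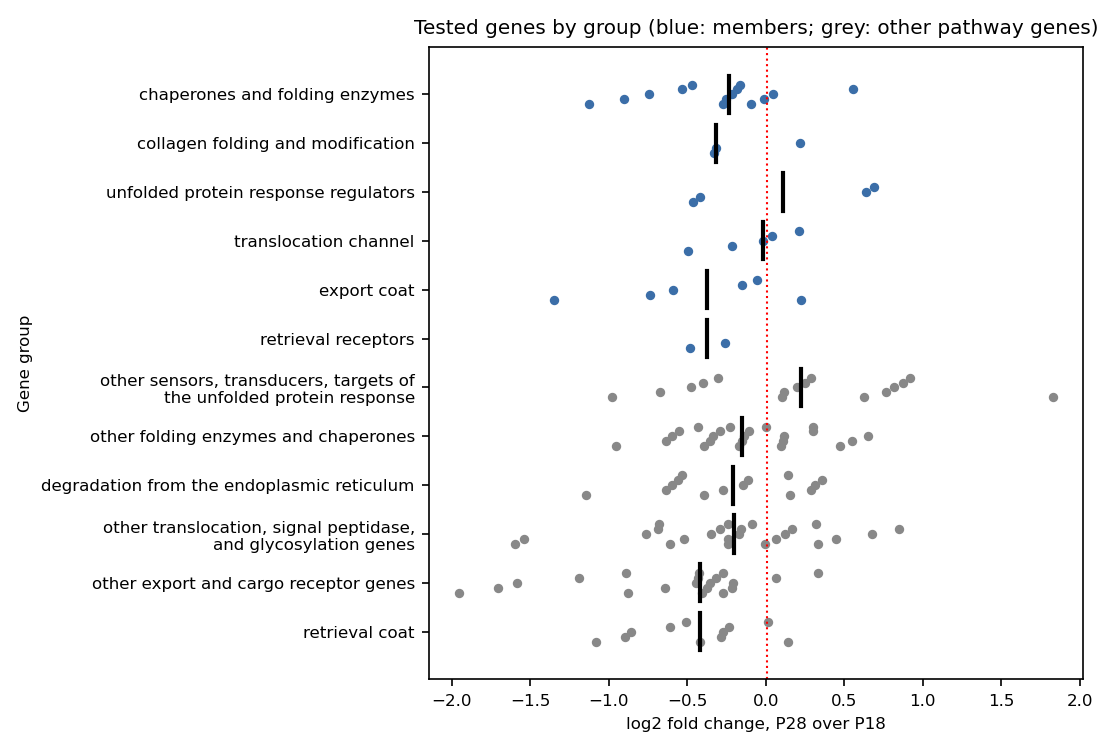
Log2 fold change, P28 over P18, of each tested gene by group, with members in blue and other pathway genes in grey; black bars are group medians and the dotted line is the median of all genes tested (0.01). The medians of the export coat and the retrieval receptors (both -0.37) and of the other export genes and the retrieval coat (both -0.42) lie lowest, and those of the unfolded protein response groups (0.11 and 0.23) lie above 0.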

How the data were processed

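RNA from cervical periodontal ligament of 4 rats at P18 and 4 at P28 was sequenced. The authors deposited raw counts per gene symbol; build rn6 and the tools HTSeq 0.9.1, STAR 2.5.3a and edgeR 3.16.5 are named, per the submitters' processing notes, with no role. Annotation and strand setting: not given in the sources used here, so reads of overlapping genes cannot be told apart. Its columns of other samples, 40 in number, were not used. The table of normalized values was not used.

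All genes were tested with edgeR 4.0.16 (R 4.3.3; quasi-likelihood test, 2-sided, TMM scaling, age as the only term, expression filter with minimum count 10), with Benjamini-Hochberg adjustment over the 10472 genes left and calls at an adjusted p under 0.05. The SE is the size of the log2 fold change over the root of F; intervals are 95%. The fit was tested on simulated counts. Alternatives used DESeq2 1.42.0, limma 3.58.1, 2 other scalings, 2 other filters, the subject number as a block, and each library left out in turn. Means carry the SD of 4 libraries, and limits from counts cover counting error only.

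The members and lists were chosen with earlier results of these data known. Every member is accounted for; libraries are given singly for members with an unadjusted p under 0.05 or no overlap between ages, for Hspa5, Xbp1, Ddit3, Atf4, Sec13 and Sec24d in any case, and for a few more chosen after their values were seen. Of each other list, called genes and otherwise up to 3 with the lowest p are named; Tmed2, Surf4, Serpinh1 and single marker genes were added after their values were seen. The listed symbols Mogs, Selenos, Srp54, Trp63 and Hba-a1 were matched through RefSeq synonyms to Gcs1, Vimp, Srp54a, Tp63 and Hba1, in that order. The libraries were taken as separate animals, and equal subject numbers did not pair them. No pair of libraries held identical counts.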

Additional observations from a re-analysis of the deposited data

Results flagged for a closer look

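In 7 of 68 groups of 4 libraries (34 members in each age), 1 library lay far from the other 3, with a gap to its nearest neighbour above Dixon's 95% limit; chance flags about 1 in 20 groups. P18 replicate 3 was the outlying library 4 times, low for Dnajb11 (126 CPM), Atf4 (308 CPM) and Sec61a1 (602 CPM) and high for Sec31a (235 CPM). P28 replicate 4 was high for Dnajb11 (204 CPM) and Ssr2 (1280 CPM). P18 replicate 4 was low for Creld2 (101 CPM).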

How the results depend on the processing

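The count of called members was 0 with DESeq2 size factors, upper-quartile scaling, either other filter and the replicate block. It was 5 with the DESeq2 Wald test, 3 with voom and quality weights, and 0 to 2 leaving out 1 library (2 without P28 replicate 4). Over all genes these gave 552 and 307 calls, the replicate block 26, and leaving out 1 library 9 (P18 replicate 2) to 215 (P28 replicate 4), against 98. The median log2 fold changes of chaperones and of the export coat stayed within 1 SD of the spread between libraries under all 15 alternatives.

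Of 34 members, 28 kept the sign of their log2 fold change in all 15 alternatives. The sign turned for the other 6, Creld2, Canx, Sec61a1, Sec61b, Ssr3 and Sec24d. Creld2 was -0.0722 with voom, -0.0206 with the replicate block and -0.275 to 0.181 leaving out 1 library. Canx was 0.0357 with voom and -0.0705 to 0.0397 leaving out 1 library. Leaving out 1 library, Sec61a1 ran from -0.122 to 0.0634, Sec61b from -0.0177 to 0.138, Ssr3 from -0.0523 to 0.322 and Sec24d from -0.153 to 0.000126. The cause was not tested.

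Equal subject numbers did not pair the libraries: the correlation of their deviations from the age means was -0.02 to 0.002 over the 4 pairs. The block moved no member's call; the call of Sec22b ended (edgeR adjusted p = 0.109). The shallowest library, P28 replicate 4, still held 160 to 7967 counts of each member; whether depth limits the calls was not tested.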
